A study of Mus musculus with 46 samples.

Results

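The miRNA families miR-297, miR-466, miR-467 and miR-669 were followed through RNA degradation in mouse heart, liver and brain. Members were taken by name, as every mouse miRNA on the array whose name begins with miR-297, miR-466, miR-467 or miR-669, with any letter and arm. This gave 61 members of the 1881 miRNAs on the array, of which 25 were 5p arms, 26 were 3p arms and 10 carried no arm in their name. By family there were 3 members of miR-297, 23 of miR-466, 12 of miR-467 and 23 of miR-669. The RNA came from male C57BL6 mice of an Il1a knock-out strain, a background shared by all groups. Heart, liver and brain were cut into pieces that were left for 0 to 96 h at 4 °C or at room temperature (RT) before RNA isolation with the miRNeasy kit. Each combination of tissue, temperature and time used here had 1 Agilent 1-colour miRNA array. There were 16 brain, 15 heart and 14 liver arrays, 45 in all, since heart of 0 h at 4 °C was left out and liver of 6 h and 96 h at 4 °C was not analysed here. Animals were kept apart by temperature, and all pieces of a tissue at a temperature came from 1 animal and lay on 1 slide, so that temperature, animal and slide cannot be told apart within a tissue. Pieces of 1 organ served as the samples, and p-values measure the spread between such pieces and arrays, not between animals.

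RNA quality was given by the RNA integrity number (RIN), which falls from 10 for intact RNA as ribosomal RNA is broken down. Arrays with a RIN over 6 are called intact here and those with a RIN of 6 or lower degraded, which left 13 intact and 2 degraded heart arrays, 6 and 8 liver arrays, and 14 and 2 brain arrays. Of the 8 degraded liver arrays, 7 were from RT. The arrays detected 268 to 798 miRNAs, with a summed detected signal of 153088 to 541770. The liver marker miR-122-5p had a median log2 level of 14.79 in intact liver against 6.64 in heart and 2.23 in brain, and the brain marker miR-124-3p one of 13.41 in brain against -0.16 in heart and -0.92 in liver. Levels are on the log2 scale of variance stabilizing normalization (VSN) throughout, on which undetected signals can be below 0. Different probes differ in brightness, so levels are compared only between arrays.

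MicroRNAs are cut from a hairpin precursor, whose arms give a 5p and a 3p product, and they find target mRNAs mainly through the seed, the bases that follow the first one at the 5′ end. Most hairpins of these families stand in a long repetitive cluster inside an intron of Sfmbt2, a Polycomb-group gene that is imprinted in the mouse, and the cluster is known from embryonic stem cells and the placenta. The hairpins arose by repeated duplication of a sequence rich in simple repeats and their members resemble each other.

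In the RefSeq gene table (GRCm38.p6), 81 loci carried the names of these families, 71 of them inside Sfmbt2 and 10 elsewhere. The 8 members whose loci all lay outside Sfmbt2 included 4 of the 9 members detected on at least 40 arrays. Of the 50 members with all loci inside Sfmbt2, 21 were detected on none of the 45 arrays. The RefSeq miRNA table held mature sequences for 7 members, all of them from loci outside Sfmbt2. Some were built mostly of G and U and others mostly of A and C. Among them miR-466k and miR-467g were detected on no array. Of the 31 tested members, 26 had no mature sequence there. Whether levels depend on base composition was not tested. Capitals mark the seed, bases 2 to 8, and no seed was shared.
miR-669n: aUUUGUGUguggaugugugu
miR-466j: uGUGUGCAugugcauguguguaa
miR-466k: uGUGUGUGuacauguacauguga
miR-466i-3p: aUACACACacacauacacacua
miR-467f: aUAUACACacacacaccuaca
miR-466q: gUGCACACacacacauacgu
miR-467g: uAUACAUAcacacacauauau
G and U made up 90.0% of miR-669n, 73.9% of miR-466j and 69.6% of miR-466k, but 13.6% of miR-466i-3p, 14.3% of miR-467f, 28.6% of miR-467g and 30.0% of miR-466q. In GRCm38.p6, miR-669n lies at chr3:115979905-115979924 (+) within Slc30a7 and miR-466q at chr3:28419988-28420007 (+) within Tnik. MiR-466k lies at chr3:85467396-85467418 (+) within Gm31419 and miR-466j at chr10:60960802-60960824 (+), in no other annotated gene. MiR-466i-3p lies at chr13:17747552-17747573 (+) within Cdk13, miR-467f at chr11:69635419-69635439 (-) within Fxr2 and miR-467g at chr5:34732872-34732892 (-) within Grk4.

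Detection is given by arm. Of the 61 members, 23 were detected on none of the 45 arrays, 7 on 1 to 4 arrays and 31 on at least 5, which was the minimum for testing. Among all 1881 miRNAs, 809 were detected on no array and 815 were tested. Of the 25 5p members, 11 were detected only on degraded arrays, and of the 26 3p members none was, against 15.3% of all 1881 miRNAs, although 13 of the 3p members were never detected. There were 7 members detected on all 45 arrays, namely miR-466f-3p, miR-466h-3p, miR-466i-3p, miR-466i-5p, miR-466q, miR-467f and miR-669p-3p, and miR-669c-3p followed with 44 arrays and miR-466g with 42. Of these 9, miR-466i-5p was the only 5p arm. No member of miR-297 reached 5 arrays.

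On intact arrays, 1 to 6 of the 25 5p members were detected in heart, 1 in each liver array and 1 to 4 in brain. On degraded arrays the 5p count was 14 and 17 in heart, 1 to 18 in liver, and 4 and 10 in brain. The 3p members stayed in a narrow range, with 6 to 10 detected on intact and 7 to 8 on degraded heart arrays, 4 to 6 and 6 to 8 in liver, and 7 to 10 and 9 to 10 in brain. In the plot of detected members against RIN, arrays of similar RIN differed in their 5p counts. These are single arrays, and the cause was not tested. At RT the liver arrays of 1 h and 3 h (RIN 6 and 4.1) as well as the 48 h liver array of 4 °C (RIN 3.4) each detected 1 5p member, whereas the heart array of 48 h at RT with a RIN of 4.6 detected 14. RIN and times are those of the sample labels. The paper's text gives a RIN of 4.1 for liver of 48 h at 4 °C, and its methods give 14 h for the time labelled 12 h. In liver at RT the 5p count was 7 at 6 h (RIN 2.8), 11 at 12 h (RIN 2.7) and 18 at 24 h (RIN 2.7). All detected miRNAs also became more numerous, from 310 at 0 h to 726 at 96 h in liver at RT, and members made up 3.23% of the miRNAs detected at 0 h and 4.13% at 96 h. The part of increased detection of all miRNAs in the members' counts was not tested.

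**Figure D1:**
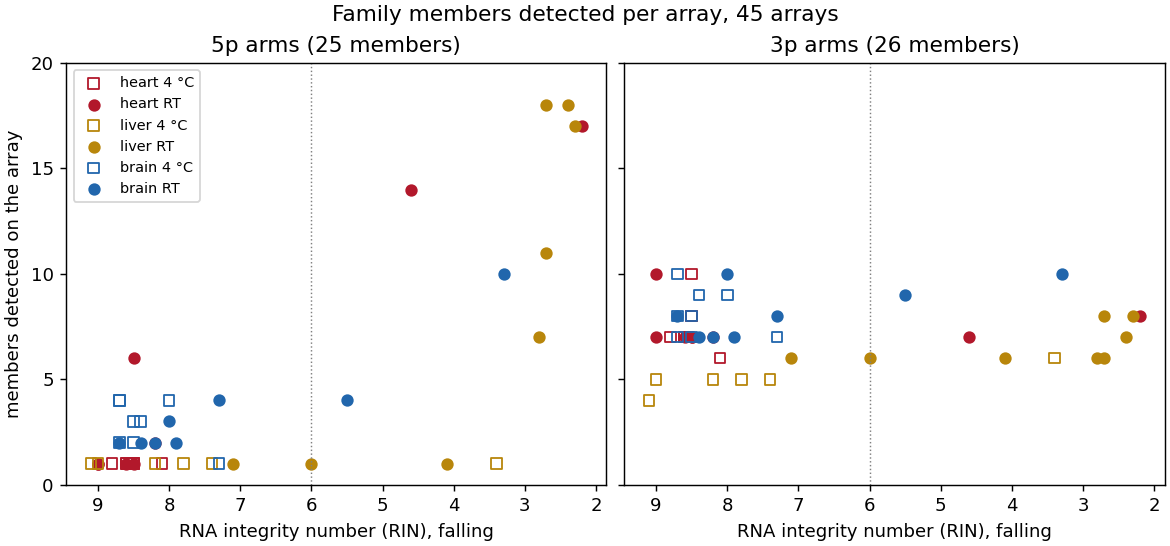
Number of family members detected on each of 45 arrays (y axis) against RIN (x axis, falling to the right), for 5p arms (left) and 3p arms (right), with tissue by colour, RT as filled circles and 4 °C as open squares, and a dotted line at RIN 6. The 5p counts reach 18 in degraded liver and 17 in degraded heart, while the 3p counts lie between 4 and 10 on all arrays.

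The members' share of the summed detected signal moved further than their number. It was 0.0287% to 0.0717% on the intact liver arrays, and after 12, 24, 48 and 96 h of RT storage it was 0.492%, 2.43%, 6.1% and 2.5%. In heart at RT it was 0.0584% at 0 h and 1.22% at 96 h, and in brain 0.0903% and 1.11%. On the 4 °C arrays it ended at 0.104% in heart and 0.228% in brain after 96 h. Signal shares are sums over probes of unequal brightness and are not shares of molecules.

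The level of each member was then correlated with RIN over the 45 arrays, the question being which miRNAs lose or gain signal as RNA quality falls. After Bonferroni adjustment over 815 miRNAs, 18 of the 31 tested members were called (p from Pearson's r, adjusted), against 36.3% of all miRNAs tested. A negative r, a higher level at low RIN, was called for 14 members against 25.9% of all miRNAs, and a positive r for 4 members against 10.4%. The 14 were 12 5p arms and 2 members with no arm, miR-466j and miR-669n, and no 3p arm was among them. Of the 14, 7 were detected on degraded arrays only. MiR-466h-5p was detected on 2 intact arrays, and miR-466m-5p, miR-467c-5p, miR-669b-5p and miR-669l-5p on 1 each. All of these passed the minimum of 5 through degraded arrays, where they are high, so their count is no independent support. Over all 61 members, tested or not, the median r was -0.17 against 0.07 for all 1881 miRNAs. It was -0.67 for all 25 5p arms and 0.52 for all 26 3p arms, many of which were never detected. Of the 14 5p arms tested, 6 were detected on degraded arrays only, and of the 12 3p arms tested none was. Besides the 5p arms with 1 or 2 intact arrays, the 3p arms miR-466m-3p (1 intact array) and miR-669h-3p (2) also needed degraded arrays to reach 5. The median r of the 12 3p arms was -0.19, against -0.03 for all miRNAs tested. With Benjamini-Hochberg adjustment, 4 3p arms were also called negative, and 19 members in all against 40.2% of all miRNAs.

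**Figure D2:**
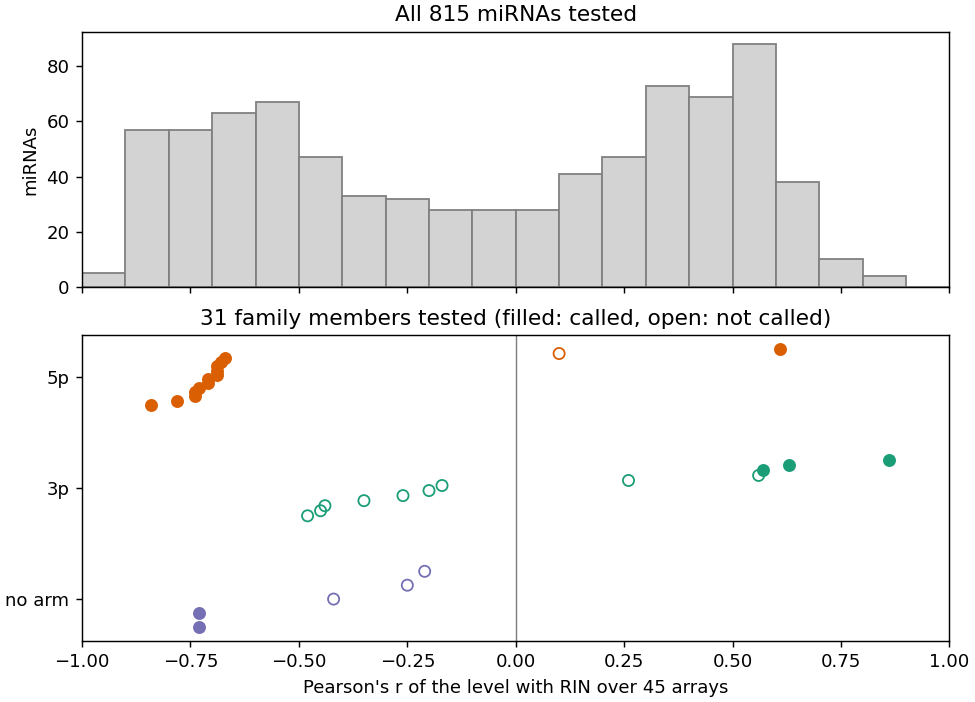
Upper panel, number of miRNAs (y axis) by Pearson's r of level with RIN over 45 arrays (x axis) for all 815 miRNAs tested; lower panel, r of the 31 family members by arm, filled where called after Bonferroni adjustment and spread vertically for legibility. The 12 filled 5p points at the left lie at a lower r than every 3p point, and no 3p point left of 0 is filled.

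MiR-466i-5p, detected on all 45 arrays, had the lowest r of the members. Its level had a lowest, median and highest value of 6.65, 7.14 and 7.80 on intact heart arrays, 5.88, 6.30 and 7.03 on intact liver arrays, and 6.72, 7.22 and 8.21 on intact brain arrays. On degraded arrays it was 8.83 and 10.43 in heart, 9.22 and 9.99 in brain, and 6.51, 9.76 and 13.08 (lowest, median, highest) in liver. In heart and brain every degraded array was above every intact one, and in liver 7 of 8 were. Pearson's r with RIN was -0.84 (adjusted p = 5.44e-10, permutation p = 1e-05, the smallest that 100000 permutations can give) and Spearman's rho -0.65 (permutation p = 1e-05). With the 2 arrays lying farthest from the median RIN left out, r was -0.80, and within heart, liver and brain it was -0.96, -0.84 and -0.96. Over the intact arrays of all tissues together r was -0.16, and over the 12 degraded arrays -0.75. All arrays of brain and of heart at 4 °C were intact, and within these slides r was -0.86 and 0.47. The opposite arm of the same hairpin, miR-466i-3p, had an r of -0.35 (adjusted p = 1, permutation p = 0.0182) and a rho of -0.32 (permutation p = 0.0323). Its intact liver levels ran from 2.54 to 3.67 and its degraded liver levels from 3.90 to 5.42, a smaller step than that of the 5p arm.

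MiR-669n, the member richest in G and U among the sequences above, was detected on 34 arrays. On intact arrays it was detected on 9 of 13 in heart, 0 of 6 in liver and 14 of 14 in brain. Its degraded levels were 5.30 and 6.49 in heart, 4.81 and 5.31 in brain and 2.25 to 8.70 in liver, above all intact levels of the tissue in heart and brain and on 7 of 8 arrays in liver. Its r with RIN was -0.73 (adjusted p = 8.38e-06, permutation p = 1e-05) and its rho -0.49 (permutation p = 0.00084). Over intact arrays r was 0, and with the 2 arrays lying farthest from the median RIN left out it was -0.66.

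MiR-466m-5p was detected on 9 arrays, 1 of them intact, with an r of -0.78 (adjusted p = 1.66e-07, permutation p = 1e-05) and a rho of -0.49 (permutation p = 0.00077). MiR-669e-5p (r = -0.74, adjusted p = 5.06e-06, permutation p = 1e-05; rho = -0.36, permutation p = 0.0167) and miR-466f-5p (r = -0.74, adjusted p = 5.81e-06, permutation p = 1e-05; rho = -0.50, permutation p = 0.00059) were detected on degraded arrays only. Over intact arrays their r was 0.17 and -0.14, and that of miR-466m-5p 0.02. MiR-466f-5p has 4 probes, and r was above 0 for 1 of them, with the probes between -0.70 and 0.16. For 17 of the 18 called members all probes had the sign of the member.

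The 4 members called with a positive r belonged to the miR-467 family. They were miR-467d-3p (r = 0.86), miR-467b-3p (0.63), miR-467b-5p (0.61) and miR-467a-3p (0.57), the last named here after its values were seen. MiR-467d-3p had the smallest p of all members (adjusted p = 2.22e-11, permutation p = 1e-05; rho = 0.64, permutation p = 1e-05) but was detected on 6 arrays, all of intact brain. Its level was 1.61 to 2.32 in intact brain and 1.20 and 1.49 in degraded brain, and in liver it was 1.14 to 2.31 on intact and 0.06 to 1.37 on degraded arrays, none of which detected it. The lowest level at which any miRNA was detected on an array also moved with RIN, with an r of 0.72 over 45 arrays and values from 0.19 to 1.74. The part of that floor in the 4 positive correlations was not tested. MiR-467b-5p was detected on 13 of 14 intact brain arrays, where it ran from 2.23 to 4.05 with a median of 3.50. It was 1.96 and 1.10 on the 2 degraded brain arrays, below every intact one.

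All 18 called members had the same sign of r within heart, within liver and within brain. Within slides, the 6 members of smallest p kept their sign on the 3 RT slides, with miR-669n at -0.92 in heart, -0.81 in liver and -0.95 in brain. On the slide of heart at 4 °C, where RIN ran only from 8.1 to 8.8, its r was 0.60. The others did not keep their sign there either, with miR-466i-5p at 0.47, miR-466m-5p at 0.71, miR-669e-5p at 0.81, miR-466f-5p at 0.28 and miR-467d-3p at 0. Over intact arrays alone no member was called, nor was any of the 815 miRNAs. Without the slide of liver at RT, which holds 7 of the 12 degraded arrays, 7 members were called, 5 of them negative and 2 positive, beside 154 of the 815 miRNAs. With only the miRNAs detected on at least 10 arrays, 7 of 17 members were called, beside 232 of 650 miRNAs. The signs of r of the 18 members were the same under 4 other scalings of the arrays, but the positive calls were not. Positive and negative calls numbered 2 and 14 with the 75th percentile, 3 and 14 with quantile normalization, 2 and 14 with normexp, and 0 and 20 with no scaling. The r of miR-467d-3p was 0.361 with no scaling (adjusted p = 1).

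**Figure D3:**
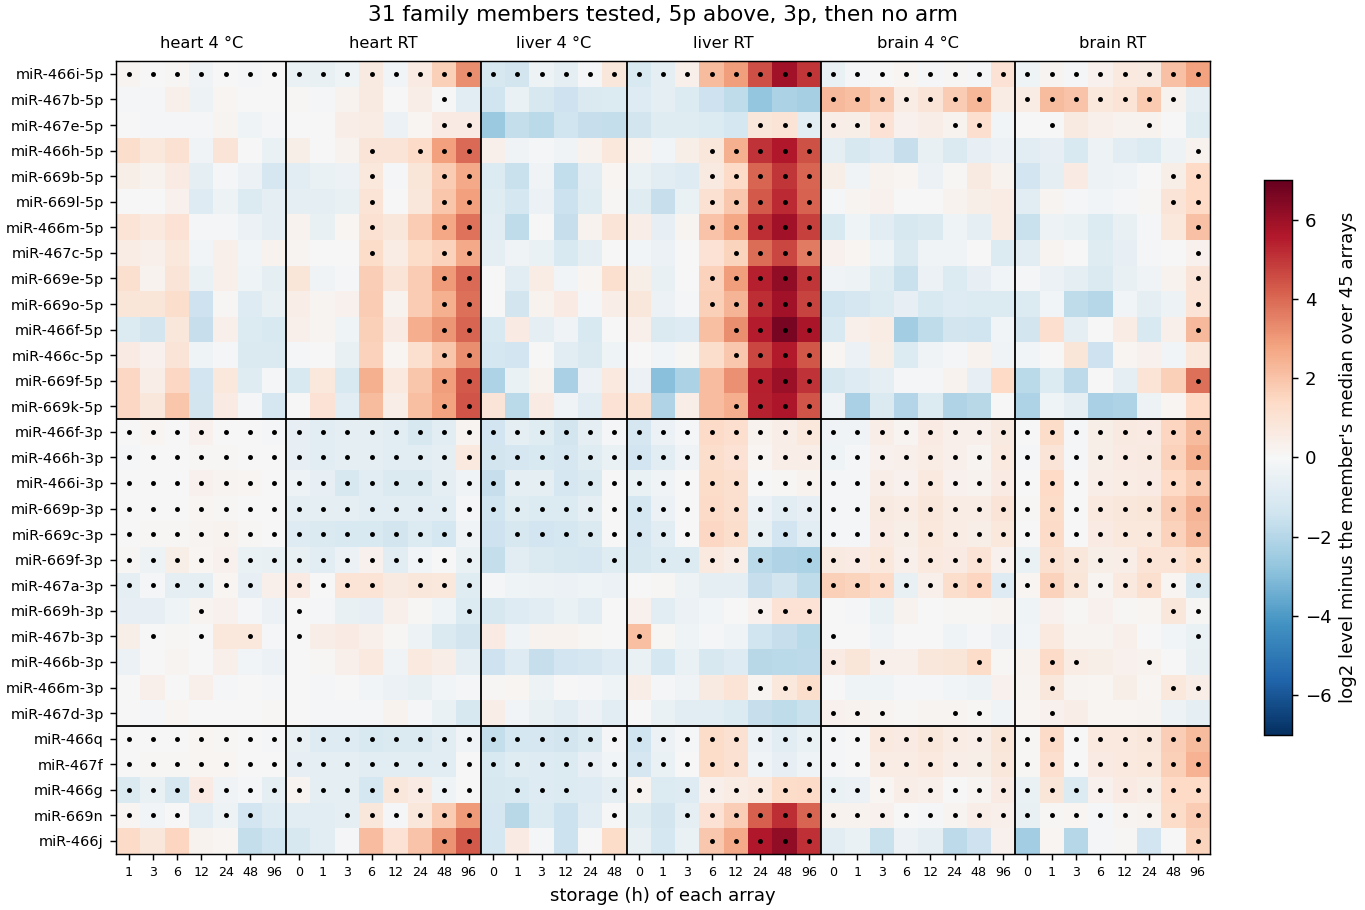
Level of the 31 tested members (rows, 5p arms, then 3p arms, then members with no arm) on 45 arrays (columns, by tissue and temperature and in order of storage time in h), as log2 difference from the member's median over all arrays, with a black dot where the member was detected. Most 5p rows and miR-669n and miR-466j turn red in liver at RT from 24 h and, mostly less strongly, in heart at RT at 48 h and 96 h, where the 3p rows do not.

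The time courses were then followed array by array. In liver after 0, 1, 3, 6, 12, 24, 48 and 96 h at RT, miR-466i-5p was in turn 6.09, 6.51, 7.51, 9.42, 10.10, 11.67, 13.08 and 12.16. MiR-669n had a like course there, from 2.66 at 0 h through 4.53 at 6 h to 8.70 at 48 h and 7.62 at 96 h. MiR-467f and miR-466h-3p had another. At the same times miR-467f was 4.03, 4.73, 5.14, 6.45, 6.23, 4.95, 4.62 and 4.90. MiR-466h-3p went from 3.93 at the start to 6.49 after 6 h, 6.28 after 12 h, 5.43 after 24 h and 5.76 after 96 h. Of the 8 members detected on at least 40 arrays, miR-466i-5p apart, 7 were highest at 6 h in liver at RT, and the other, miR-466g, at 96 h. These are single arrays with no replicate at a time point, and the time of the highest level depended on the scaling, in a comparison added after the courses were seen. Scaled to the 75th percentile, none of the 8 was highest at 6 h and 5 were at 12 h, with no scaling 2 were at 6 h and 3 at 12 h, and with quantile normalization 3 and 3. Of the 8, 7 were higher at 6 h than at 48 h under VSN, quantile normalization, no scaling and normexp, and 5 with the 75th percentile.

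In brain at RT all 8 were highest at 96 h. After 0, 1 and 3 h miR-467f was 5.29, 6.37 and 5.19, from 6 h to 24 h it lay between 5.75 and 5.92, and after 48 and 96 h it was 6.86 and 7.65. The 1 h array of brain at RT stood above its neighbours in time for these members, with miR-669p-3p at 6.12 between 4.92 at 0 h and 4.91 at 3 h. In heart at RT, miR-467f stayed between 4.40 and 4.59 from 0 h to 48 h and was 5.22 at 96 h, whereas on the heart slide of 4 °C it lay between 5.18 and 5.35 at all times. MiR-466h-3p likewise lay between 4.49 and 4.68 in heart at RT up to 48 h and between 5.22 and 5.37 at 4 °C. MiR-466i-5p in heart at RT was 6.74, 7.77, 8.83 and 10.43 after 0, 24, 48 and 96 h, and at 4 °C it lay between 6.93 and 7.35.

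**Figure D4:**
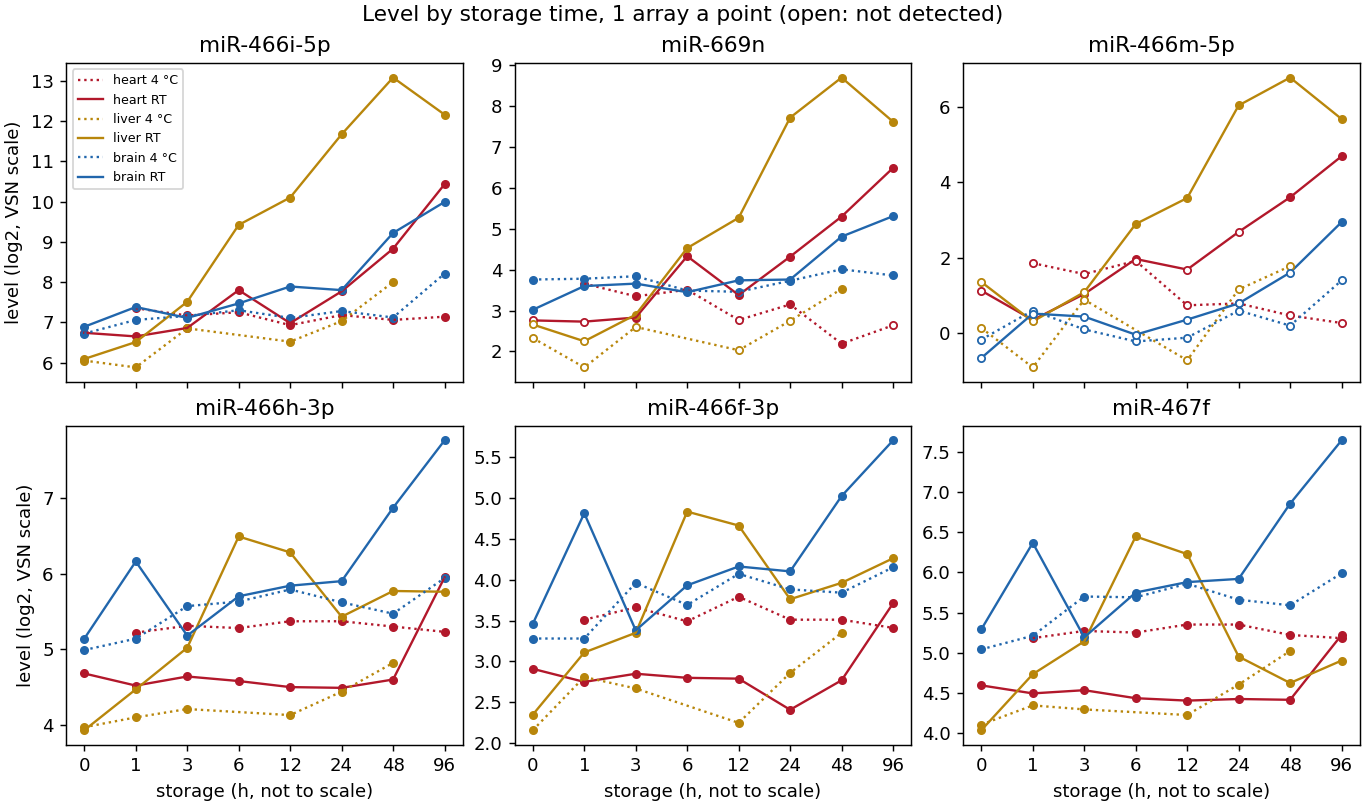
Level (log2, VSN scale, y axis, a range of its own in each panel) of 6 members by storage time (x axis in h, not to scale) in heart, liver and brain at RT (solid) and 4 °C (dotted), 1 array a point and open where the member was not detected. The upper 3 members reach their highest level in liver at RT at 48 h, and the lower 3 reach a first maximum there at 6 h and their highest level of all in brain at RT at 96 h.

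Correlated with hours of storage at RT over 24 arrays of 3 tissues, none of the 31 members was called by Pearson's r with Bonferroni adjustment, against 12.3% of all miRNAs, while 20 had an unadjusted p below 0.05, against 59.1%, and 19 were called with Benjamini-Hochberg adjustment. Of the 19, 16 had a positive r, against 36.2% of all miRNAs by that adjustment, and 3 a negative one, against 17.7%. The 16 were 12 5p arms, 1 3p arm and 3 members with no arm, and the 3 negative ones were 3p arms. Among the 16 were miR-466c-5p, miR-466f-5p, miR-466j, miR-669e-5p, miR-669f-5p, miR-669k-5p and miR-669o-5p, detected on degraded arrays only. MiR-466h-5p, miR-466m-5p, miR-467c-5p, miR-669b-5p and miR-669l-5p, detected on 1 or 2 intact arrays, were also among them. These members passed the minimum of 5 through degraded arrays, so the count and the split by arm are no independent support. For miR-466i-5p r was 0.71 (Bonferroni p = 0.0807, Benjamini-Hochberg p = 0.000684, permutation p = 0.00033) and rho 0.85 (permutation p = 1e-05). Within heart, liver and brain its r was 0.97, 0.75 and 0.96, and without the 2 arrays farthest from the median time it was 0.62. For miR-669n r was 0.71 (Bonferroni p = 0.0877, permutation p = 5e-04) and rho 0.87 (permutation p = 1e-05). With the slide as a block 6 members were called after Bonferroni adjustment, 4 higher and 2 lower with time, beside 211 of the 815 miRNAs. With log2(hours + 1) 5 were called beside 174 of the 815, with no scaling of the arrays 7 beside 192, and without the slide of liver at RT 4 beside 132.

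At 4 °C, over 21 arrays, none of the 31 members was called by Pearson's r with either adjustment, against 0.982% of all miRNAs with Bonferroni adjustment and, with Benjamini-Hochberg adjustment, 4.91% positive and 0.368% negative. There was 1 member with an unadjusted p below 0.05, against 17.4%. This was miR-466i-5p, with an r of 0.54 (Bonferroni p = 1, permutation p = 0.0126) and a rho of 0.42 (permutation p = 0.0578). Its r within tissues was -0.28 in heart, 0.92 in liver and 0.86 in brain. Its level in liver at 4 °C was 6.05 at 0 h and 8.00 at 48 h, the array with a RIN of 3.4, and in brain 6.72 at 0 h and 8.21 at 96 h.

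The slopes with storage time were compared between temperatures in a limma fit with a term for each slide. For 16 members the slope at RT differed from that at 4 °C (Benjamini-Hochberg below 0.05), against 52.6% of all miRNAs tested. The slope was higher at RT for 14 members, against 24.7% of all miRNAs, and lower for 2, against 28%. The 14 were 12 5p arms, miR-669n and miR-466j, and the 2 were the 3p arms miR-467b-3p (-0.37 log2 per day, RT minus 4 °C) and miR-467d-3p (-0.20), of which miR-467d-3p turned to 0.10 with no scaling of the arrays. Of the 14, 7 were detected on degraded arrays only, and miR-466h-5p, miR-466m-5p, miR-467c-5p, miR-669b-5p and miR-669l-5p on 1 or 2 intact arrays. These passed the minimum of 5 through degraded arrays, so their tests are no independent support. MiR-669n gained 0.94 ± 0.14 (SE) log2 per day at RT and changed by -0.01 ± 0.17 at 4 °C (adjusted p of the difference 0.00116), and miR-669b-5p gained 0.88 ± 0.14 and changed by -0.06 ± 0.17 (adjusted p = 0.00116). MiR-466j gained 1.13 ± 0.20 and changed by -0.14 ± 0.24 (adjusted p = 0.00196). MiR-466m-5p gained 1.01 ± 0.15 against 0.08 ± 0.18 (adjusted p = 0.0022). MiR-466i-5p gained 1.03 ± 0.14 at RT and 0.21 ± 0.16 at 4 °C, a difference of 0.82 (adjusted p = 0.00275). For miR-466h-3p the values were 0.37 ± 0.08 and 0.10 ± 0.09, and the difference of 0.27 missed the threshold (adjusted p = 0.0524). With other scalings the calls higher and lower at RT were 13 and 0 with the 75th percentile, 14 and 3 with quantile normalization, 21 and 0 with no scaling, and 12 and 0 with normexp. Without the slide of heart at 4 °C 1 member was called and 132 of the 815 miRNAs, and without any other slide 15 to 18 members were.

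**Figure D5:**
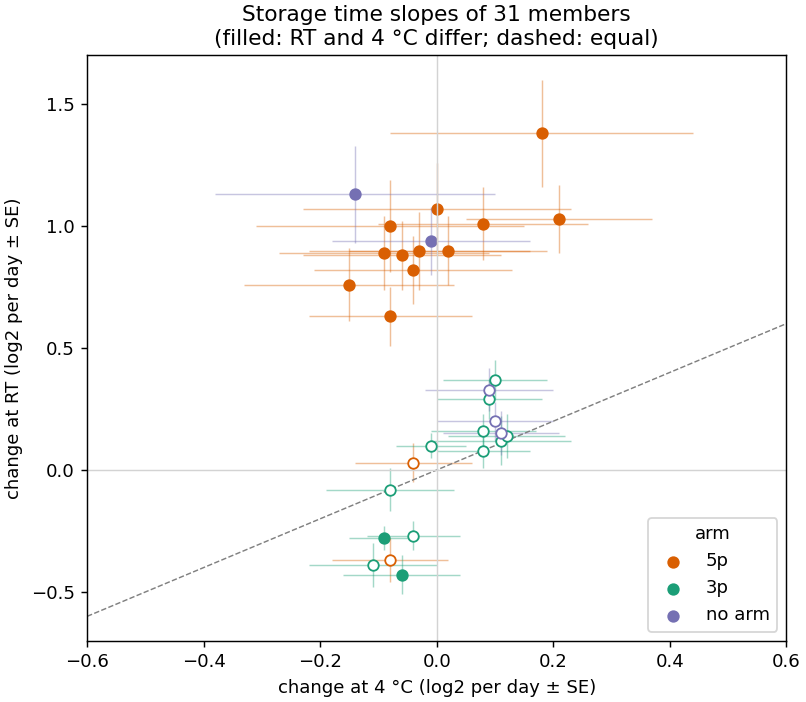
Change with storage time at RT (y axis, log2 per day) against that at 4 °C (x axis, log2 per day) for the 31 members, with bars for the standard error, colour for the arm and filled points where the slopes differed. The 14 filled points above the dashed line of equal slopes are 12 5p arms and 2 members with no arm, at 0.63 to 1.38 per day at RT.

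Low- and high-quality liver were compared with an exact 2-sided Wilcoxon-Mann-Whitney test on 8 against 6 arrays, whose smallest possible p is 0.000666. After Benjamini-Hochberg adjustment 16 members were called, against 27.7% of all miRNAs tested, 14 of them higher in degraded liver, against 24.8%, and 2 lower, against 2.94%. More than 2-fold higher were 13 members, against 24.3% of all miRNAs, and more than 2-fold lower 1, against 2.21%. The 14 were 6 5p arms, 5 3p arms and 3 members with no arm, so that members of both arms were called higher under VSN. Calls of 3p arms depended on the scaling, as given below. Of the 5p arms called, miR-466c-5p was detected on degraded arrays only, and miR-466h-5p, miR-466m-5p and miR-467c-5p on 1 or 2 intact arrays. These passed the detection minimum through degraded arrays, so their calls are no independent support. The calls higher and lower numbered 10 and 3 with the 75th percentile, 6 and 2 with quantile normalization, 19 and 0 with no scaling, and 7 and 2 with normexp. In turn these were 13, 8, 19 and 9 of 31 members, beside 281, 209, 277 and 224 of the 815 miRNAs. The median log2 difference was 2.41 for all 25 5p arms, -0.65 for all 26 3p arms and 0.56 for all 61 members, tested or not, against -0.22 for all 1881 miRNAs. Of the 26 3p arms 13 were never detected. For the 12 3p arms tested the median was 0.54, against 0.33 for all miRNAs tested.

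MiR-466i-5p was 6.40 ± 0.47 (SD, n = 6) in high- and 9.81 ± 2.37 (n = 8) in low-quality liver, 10.6-fold higher (exact test, adjusted p = 0.0286), and 7 of the 8 low-quality arrays were above all high-quality ones. MiR-669n was detected on 0 of 6 high- and 7 of 8 low-quality arrays and was 7.90-fold higher under VSN with undetected arrays raised as described next (2.33 ± 0.44 against 5.32 ± 2.44 as measured, exact test, adjusted p = 0.0322). MiR-466m-5p was detected on 0 of 6 and 5 of 8 and was 3.71-fold higher in the same way (exact test, adjusted p = 0.0456). For these folds, each array of the group without detection was set at the higher of its own measured level and the lowest level detected on it. Undetected arrays of the other group kept their measured level. The levels of miR-669n were mostly above that lowest level, so that its bound is close to its measured difference of 2.99.

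The groups did not overlap for 5 members, all higher in low-quality liver, against 3.19% of all miRNAs tested. MiR-466f-3p was 2.52 ± 0.30 (n = 6) in high- and 3.91 ± 0.63 (n = 8) in low-quality liver, 2.63-fold higher (exact test, adjusted p = 0.0209), and miR-466h-3p was 4.13 ± 0.18 and 5.50 ± 0.71, 2.59-fold higher (exact test, adjusted p = 0.0209). MiR-466i-3p was 2.35-fold, miR-466q 2.46-fold and miR-467f 1.99-fold higher, each with all 8 low-quality arrays above all 6 high-quality ones. Their size and call depended on the scaling. With the 75th percentile, quantile normalization and normexp the log2 difference was 0.99, 0.75 and 0.07 for miR-466f-3p, 0.83, 0.28 and 0.17 for miR-466h-3p and 0.76, 0.26 and 0.03 for miR-466i-3p, and none of the 3 members was called under these settings. With no scaling it was 2.32, 2.35 and 2.20, and each was called. The direction turned for miR-467f with quantile normalization (-0.13) and normexp (-0.05), for miR-466q with normexp (-0.01) and for miR-669p-3p with quantile normalization (-0.08). The median of all 815 miRNAs itself moved by 0.33 between the liver groups under VSN, by -0.14 with quantile normalization and by -0.01 with normexp. Low quality and the RT slide nearly coincided, and in a limma fit blocked on slide none of the 815 miRNAs was called.

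Heart and brain had 2 degraded arrays each, and their values are given as a description with no test. In heart, miR-466i-5p was 2.49 and miR-669n 2.69 higher on the degraded than on the intact arrays (log2 difference of means), whereas miR-466h-3p was 0.31, miR-466f-3p 0.06 and miR-467f -0.08. In brain, miR-466i-5p was 2.28 and miR-669n 1.40 higher, and miR-466h-3p was 1.73, miR-467f 1.61, miR-669p-3p 1.57 and miR-466f-3p 1.51 higher. The RIN slopes of the tissues were compared in limma with a term for each slide. None of the 31 members was called, against 2.09% of all miRNAs tested, and 8 had an unadjusted p below 0.05, against 13.6%. For miR-467f the slope was -0.08 ± 0.06 (SE) log2 per RIN unit in heart, -0.20 ± 0.06 in liver and -0.42 ± 0.08 in brain (adjusted p = 0.134), and for miR-466i-5p it was -0.49 ± 0.12, -0.80 ± 0.12 and -0.58 ± 0.16 (adjusted p = 0.747). Without the liver slide of 4 °C 13 members were called beside 246 of the 815 miRNAs, and without that of RT 13 beside 330. With tissue in place of slide as the block 7 were called beside 47, with normexp 8 beside 161, and with quantile normalization 3 beside 23.

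Tissues were compared on intact arrays with limma and the slide as a random block. The consensus correlation of arrays of a slide was 0.02, so the block had little effect and pieces of 1 organ counted nearly as independent samples. The p-values are therefore not corrected for differences between slides. In intact heart, miR-467f was 4.40 to 4.59 on the RT slide and 5.18 to 5.35 on that of 4 °C. The tissues were not paired by animal, although the paper states that they were taken from the same individual. Brain and heart differed for 20 members, against 69% of all miRNAs tested, with 13 higher in brain, against 47.1%, and 7 lower, against 21.8%. Brain and liver differed for 23 members, against 72.6%, with 19 higher in brain, against 58%, and 4 lower, against 14.6%. Liver and heart differed for 20 members, against 54.1%, all lower in liver, against 44.8%, where 9.33% of all miRNAs were higher in liver. With quantile normalization 1 member was higher and 10 lower in brain than in heart, and with normexp 1 and 13, the opposite balance. With no scaling it was 18 and 6. In brain against liver the calls higher and lower were 19 and 1 with the 75th percentile, 22 and 1 with no scaling, 6 and 5 with quantile normalization and 5 and 4 with normexp. In liver against heart they were 1 and 14 with the 75th percentile and 1 and 8 with normexp.

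By the means of intact arrays, 10 of the 12 3p arms tested and 11 of all 26 stood in the order brain, heart, liver, as did miR-466q with 5.06 ± 0.41 (SD, n = 14), 4.14 ± 0.50 (n = 13) and 3.25 ± 0.22 (n = 6), and miR-466h-3p with 5.58 ± 0.35, 4.96 ± 0.38 and 4.13 ± 0.18. This order was not stable to the scaling, since miR-466q in brain against heart was 0.92 under VSN, 0.89 with the 75th percentile and 1.07 with no scaling, but -0.09 with quantile normalization and -0.08 with normexp. It also moved with the heart slide, to 1.41 without the heart slide of 4 °C and 0.494 without that of RT, and for miR-467f brain minus heart was 0.759 on all intact arrays, 1.17 without the heart slide of 4 °C and 0.394 without that of RT. The median of all miRNAs was 0.44 higher in brain than in heart under VSN and -0.12 and -0.01 with these 2. Of the members called, 9 of 20 in brain against heart, 9 of 23 in brain against liver and 13 of 20 in liver against heart kept their direction under all 4 other scalings. Without the liver slide of 4 °C, 14 members were called in brain against liver and 4 in liver against heart.

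Among those that kept their direction, miR-467b-5p was detected mainly in brain. It was detected on 13 of 14 intact brain arrays, on none of 13 in heart and on none of 6 in liver. Its level in intact brain was 3.19 ± 0.72 (SD, n = 14) against 1.81 ± 0.27 (n = 13) in heart, a measured difference of 1.37 ± 0.21 (SE, limma adjusted p = 7.31e-07). Against liver, with liver arrays raised to their lowest detected level, it was 2.97-fold higher under VSN (limma on measured levels, adjusted p = 2.47e-10). With normexp its log2 difference of brain and liver was 0.25. MiR-467e-5p was detected on 7 of 14 intact brain arrays and on no intact heart or liver array, and its measured level was 2.23 ± 0.37 (SD, n = 14) in intact brain and 0.11 ± 0.46 (n = 6) in intact liver (limma adjusted p = 3.01e-12). With signals scaled to the 75th percentile and undetected ones set at the detection floor in both tissues, brain minus liver was -0.238 (adjusted p = 0.449). MiR-669f-3p was detected on all intact brain and heart arrays and on no intact liver array, with measured levels of 3.96 ± 0.39 (SD, n = 14) in intact brain and 2.23 ± 0.29 (n = 6) in intact liver (limma adjusted p = 2.38e-09). MiR-467a-3p was detected on 14 of 14 intact brain, 11 of 13 intact heart and 0 of 14 liver arrays. For miR-466i-5p brain minus heart was 0.18 ± 0.17 (SE), which missed the threshold (adjusted p = 0.337).

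For comparison, 3 miRNAs outside these families with a mature arm of G and U repeats were set beside the members. Their RefSeq sequences in GRCm38.p6, with the seed in capitals, lie at chr5:64970328-64970350 (+), chr5:82798964-82798986 (-) and chr17:25831406-25831427 (-).
miR-574-5p: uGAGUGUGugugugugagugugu
miR-1187: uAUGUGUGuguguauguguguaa
miR-3082-5p: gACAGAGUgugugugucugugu
All 3 were detected on all 45 arrays. Their r with RIN was -0.81, -0.85 and -0.82 (adjusted p = 9.87e-09, 1.78e-10 and 6.59e-09), and they were 3.23, 3.39 and 3.52 higher in low- than in high-quality liver on the log2 scale (exact test, adjusted p = 0.0271, 0.0271 and 0.0286). These values lay beside the -0.84 and 3.40 of miR-466i-5p. They were chosen with earlier results of these data known and are a description. Of the 18 miRNAs of the miR-290 cluster, another rodent cluster active in embryonic stem cells, 10 were tested. A negative r was called for 5, against 25.9% of all miRNAs tested, and a positive one for none, against 10.4%.

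The letters were counted in all mature sequences of the RefSeq table. The run GUGUGU, read 5′ to 3′ on the mature strand, was in 17 of 1679 sequences (1.01%), and CACACA in 12 (0.71%). Of the miRNAs tested, 11 with a sequence held GUGUGU, 2 of them members. Their r with RIN had a median of -0.73 and ran from -0.85 to -0.14. Of these 11, 8 were called negative, against 25.9% of all miRNAs tested, and 6 of the 8 were not members. The 6 included miR-574-5p, miR-1187 and miR-3082-5p, compared above, and miR-294-3p of the miR-290 cluster, so they are no independent support. CACACA was in 7, 3 of them members, with a median r of -0.07 and a range of -0.35 to 0.49. None of them was called in either direction, against 36.3% of all miRNAs tested. These are counts over the few miRNAs that matched, and the mature sequences of 26 of the 31 tested members were not used here. Probes of members that differ by few bases can bind each other's targets, and their part in the like courses of the 5p arms was not tested.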

How the data were processed

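Total RNA from 45 pieces of mouse heart, liver and brain was measured on Agilent miRNA arrays of miRBase 21. The deposited scanner files, made with Agilent Feature Extraction 10.10.1.1 per the file headers, hold background-subtracted intensity values summed per probe and per miRNA and a detection flag per miRNA. The authors also deposited a table of log2 values after variance stabilizing normalization (VSN). Here the VSN was recomputed from the deposited intensity values of 45 arrays, since the authors removed the heart array of 0 h at 4 °C. Over 46 arrays the recomputed values differed from the authors' log2 table by at most 0.00166. The 815 miRNAs detected on at least 5 arrays were tested, as in the study.

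Members, gene lists and tests were chosen with earlier results of these data known. Members detected on at least 5 arrays could be named, and values by array were given for those detected on at least 40 and for the 6 of smallest p in a comparison. Tests were 2-sided and used R 4.3.3. They were Pearson's r with Bonferroni adjustment for RIN and storage time, with 100000 permutations beside it, an exact Wilcoxon-Mann-Whitney test for liver, and limma 3.58.1 (duplicateCorrelation with statmod 1.5.0) for tissues and slopes, both with Benjamini-Hochberg adjustment and a threshold of 0.05. The consensus correlation of arrays of a slide was 0.02. Fold changes are on the VSN log2 scale, which compresses low signals. All tests were run on simulated data with independent noise and no slide effect, so this does not show how they behave where slides differ. No spot of a miRNA was saturated, and each miRNA had 30 spots. Alternatives were other scalings, detection filters, adjustments, blocks and leaving out slides, and normexp was run on median spot signals. Slides, each with 1 scan day, coincided with tissue and temperature. The number of arrays limits the precision, with pieces of 1 animal on 1 slide for each tissue and temperature.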

Additional observations from a re-analysis of the deposited data

Results flagged for a closer look

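Among the 18 combinations of a member detected on at least 40 arrays and a liver group of 6 or 8 arrays that were searched for a sample far from the others, 1 was found, where chance gives about 1 in 20. It was miR-466g in high-quality liver, with a level of 2.90 on the array of 0 h at RT, and the gap to the next array was 0.82 of the range of the group.

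The storage time slope at RT minus that at 4 °C, in log2 per day, passed the limma test of the difference for 16 members. It was 1.28 for miR-466j, 1.21 for miR-669f-5p, 1.08 for miR-669k-5p, 1.07 for miR-466f-5p, 0.98 for miR-669o-5p, 0.94 for miR-669b-5p and 0.94 for miR-669n. It was 0.93 for miR-466m-5p, 0.93 for miR-669e-5p, 0.90 for miR-466c-5p, 0.87 for miR-669l-5p, 0.85 for miR-466h-5p, 0.82 for miR-466i-5p and 0.71 for miR-467c-5p. It was -0.37 for miR-467b-3p and -0.20 for miR-467d-3p, with detection on 7 and 6 of 45 arrays, respectively. Of those with a higher slope at RT, 7 were detected on degraded arrays only. They were miR-466c-5p, miR-466f-5p, miR-466j, miR-669e-5p, miR-669f-5p, miR-669k-5p and miR-669o-5p. MiR-466h-5p (2 intact arrays) and miR-466m-5p, miR-467c-5p, miR-669b-5p and miR-669l-5p (1 each) also passed the minimum of 5 through degraded arrays. The tests of all these members are no independent support. Without the slide of heart at 4 °C, 1 of the 16 was called.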

How the results depend on the processing

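Among the recomputed counts of members called, 107 stayed within 1.5 times the reported count and 35 did not. With RIN, where 18 members were called, the count was 11 with signals scaled to the 75th percentile and undetected ones at the detection floor (the floor setting), 7 with detection on at least 10 arrays, 28 with all miRNAs on the array, 0 on intact arrays alone (where r turned to 0.0217 for miR-466m-5p and 0.166 for miR-669e-5p), and 7 to 19 without a slide. With time at RT, where 0 were called, it was 7 with no scaling, 9 with all miRNAs, 19 with Benjamini-Hochberg adjustment, 6 with the slide as a block, 5 with log2(hours + 1) and 0 to 4 without a slide. At 4 °C it stayed at 0 under all alternatives run. In liver, where 16 were called, it was 8 with quantile normalization (miR-467f -0.127, miR-669p-3p -0.0774), 9 with normexp (miR-466q -0.0136, miR-467f -0.0463), 7 with the floor (2 higher and 5 lower, against 14 and 2 as reported, with 4 members shared), 26 with all miRNAs and 0 in limma blocked on slide.

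In brain against heart, 20 members became 11 with quantile normalization (miR-466q -0.0913, miR-669p-3p -0.111, miR-467f -0.112, miR-669f-3p -0.227), 13 with at least 10 arrays, 10 with all 45 arrays and 17 to 19 without a slide, and normexp turned miR-466q (-0.0759), miR-669p-3p (-0.0413), miR-467f (-0.0643) and miR-669f-3p (-0.0887). In brain against liver, 23 became 11 with quantile normalization (miR-466q -0.0313, miR-466h-3p -0.331), 9 with normexp (miR-466q -0.115, miR-466h-3p -0.139), 35 with all miRNAs and 14 to 22 without a slide, and the floor gave 11 higher and 16 lower against 19 and 4, with -0.238 for miR-467e-5p and -0.44 for miR-466b-3p. In liver against heart, 20 became 11 with quantile normalization (miR-466h-3p 0.0473), 9 with normexp (miR-466h-3p 0.00618), 5 with all 45 arrays (miR-467c-5p 0.0995) and 4 to 21 without a slide. There the floor gave 19 higher and 1 lower against 0 and 20, with 0.961 for miR-467e-5p, miR-466b-3p and miR-467b-5p and 0.877 for miR-467c-5p, each detected on at most 1 intact array of heart or liver, so that these values are close to a difference of floors. The RIN slopes of tissues, with 0 called, gave 3 with quantile normalization, 8 with normexp, 7 with tissue as the block and 0 to 13 without a slide. The time slopes, with 16, gave 5 with at least 10 arrays, 30 with all miRNAs and 1 to 18 without a slide. Fewer or more miRNAs tested change the counts by construction, and otherwise the cause was not tested. No paired analysis was run, although the paper states that the tissues were taken from the same individual. The labels give every group the same single replicate number and do not name the animal of each array.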
